A study of Mus musculus with 10 samples.

Results

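The 6 genes described here, Sox10, Mbp, S100b, Cdh19, Scn7a and Prx, are transcripts used to mark Schwann cells, the glia of peripheral nerve. They were taken by symbol from the deposited count table, where they made up 6 of 40501 gene identifiers with 1 row each. The 10 RNA-seq libraries came from inguinal white adipose tissue, a subcutaneous fat pad. PexRAP-AKO (replicates 1, 2, 3, 5 and 6) were Cre-positive male mice in which PexRAP, the ether lipid synthesis enzyme ADHAPR encoded by Dhrs7b, was deleted in adipose tissue. Control (replicates 2, 3, 5, 7 and 8) were Cre-negative males. All were C57/BL6J mice on chow, labelled both as 8 weeks old and as fed chow for 8 weeks, and the labels leave unclear which of these the age at harvest was. The sources used here name neither the Cre driver nor the target allele. Each library is taken as a separate mouse, but p-values measure only the spread between these samples.

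Schwann cells either wrap a single axon in myelin or hold bundles of thin axons without myelin, and fat depots receive sympathetic nerve fibres of mostly the unmyelinated kind. SOX10 is the transcription factor that sets and maintains the lineage and switches on myelin genes. MBP and PRX build and stabilise the myelin sheath, CDH19 is a cadherin of Schwann cell precursors and non-myelinating cells, SCN7A is a sodium-sensing channel of non-myelinating cells, and S100B is a calcium-binding protein. Several of these genes have other sources: thermogenic adipocytes in mice produce S100B, endothelium can express PRX, breast and other gland epithelium can express SOX10, and the Mbp locus also gives golli transcripts in immune cells. In bulk tissue, fewer cells of a type and less RNA per cell cannot be told apart.

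Promoter windows from RefSeq (GRCm38.p6) were found for 3 of the 6 genes, Prx, Scn7a and S100b, and every window found is shown. Sox10, Cdh19 and Mbp had no entry. In the results below, Prx has the largest negative log2 fold change, S100b the single positive one, and Scn7a mirrors S100b from library to library. Each window covers 250 bases before the transcription start and 50 after, on the gene's strand. Capitals mark GCGTGGG, part of the site read by EGR zinc-finger factors such as the myelin regulator EGR2, on either strand; the SOX letters ACAAAG and ACAATG were searched on both strands too.
Prx, chr7:27499074-27499373, plus strand: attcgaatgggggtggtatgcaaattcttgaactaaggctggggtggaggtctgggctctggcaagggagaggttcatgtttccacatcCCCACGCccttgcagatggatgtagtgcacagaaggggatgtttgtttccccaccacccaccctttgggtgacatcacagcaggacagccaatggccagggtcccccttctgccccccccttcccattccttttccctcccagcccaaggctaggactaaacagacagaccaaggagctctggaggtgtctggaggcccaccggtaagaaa
Scn7a, chr2:66784861-66785160, minus strand: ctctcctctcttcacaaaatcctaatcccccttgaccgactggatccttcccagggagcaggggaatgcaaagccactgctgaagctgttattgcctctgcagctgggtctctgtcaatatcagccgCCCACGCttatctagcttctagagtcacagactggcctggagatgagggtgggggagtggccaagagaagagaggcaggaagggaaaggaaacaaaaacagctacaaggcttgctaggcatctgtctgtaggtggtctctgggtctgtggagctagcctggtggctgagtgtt
S100b, chr10:76253586-76253885, plus strand: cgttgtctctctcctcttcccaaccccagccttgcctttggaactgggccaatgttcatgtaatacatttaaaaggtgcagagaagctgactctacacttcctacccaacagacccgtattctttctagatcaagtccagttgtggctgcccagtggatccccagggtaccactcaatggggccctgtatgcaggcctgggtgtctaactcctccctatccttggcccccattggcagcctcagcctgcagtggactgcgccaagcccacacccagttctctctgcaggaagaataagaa
The EGR letters were present in the Prx and Scn7a windows, in both as CCCACGC, and were not in the S100b window. They occur in 5.04% of the 32851 promoter windows of the same length. Neither SOX letter string was in any of the 3 windows, against 28.6% of all windows holding at least 1 of the strings. A match of letters is a description of the window and not evidence of binding.

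The libraries held 11274865 to 19881168 counts, and 14913 genes passed the filter on low counts, all 6 Schwann cell genes among them. Dhrs7b, the check on the labels, stood at 19.9 ± 2.26 CPM (counts scaled to library size) in PexRAP-AKO and 82.4 ± 12.8 CPM in Control (SD, n = 5 each) and did not overlap between the groups. Skeletal muscle transcripts varied widely, with a summed level over 15 genes of 56.1 to 172 CPM in PexRAP-AKO and 56.1 to 1485 CPM in Control. Summed endothelial transcripts (14 genes) ranged from 911 to 1295 CPM in PexRAP-AKO and from 1293 to 1522 CPM in Control.

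No Schwann cell gene passed the test of PexRAP-AKO against Control. Of the 6, 0 passed edgeR's quasi-likelihood test at a Benjamini-Hochberg adjusted p under 0.05, where 0.101% of the 14913 tested genes did (0.00671% lower and 0.0939% higher in PexRAP-AKO). The log2 fold change was below 0 for 5 members (Prx, Sox10, Mbp, Scn7a and Cdh19) and above 0 for S100b, with a median of -0.25, against -0.00065 over all tested genes. At an unadjusted p under 0.05, 2 of the 6 were lower, Prx and Mbp, against a background of 6.44% of genes lower, and 0 were higher, against 9.01%. In none of the 6 did the groups separate fully, as they did for 3.41% of tested genes (1.33% lower and 2.08% higher).

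**Figure D1:**
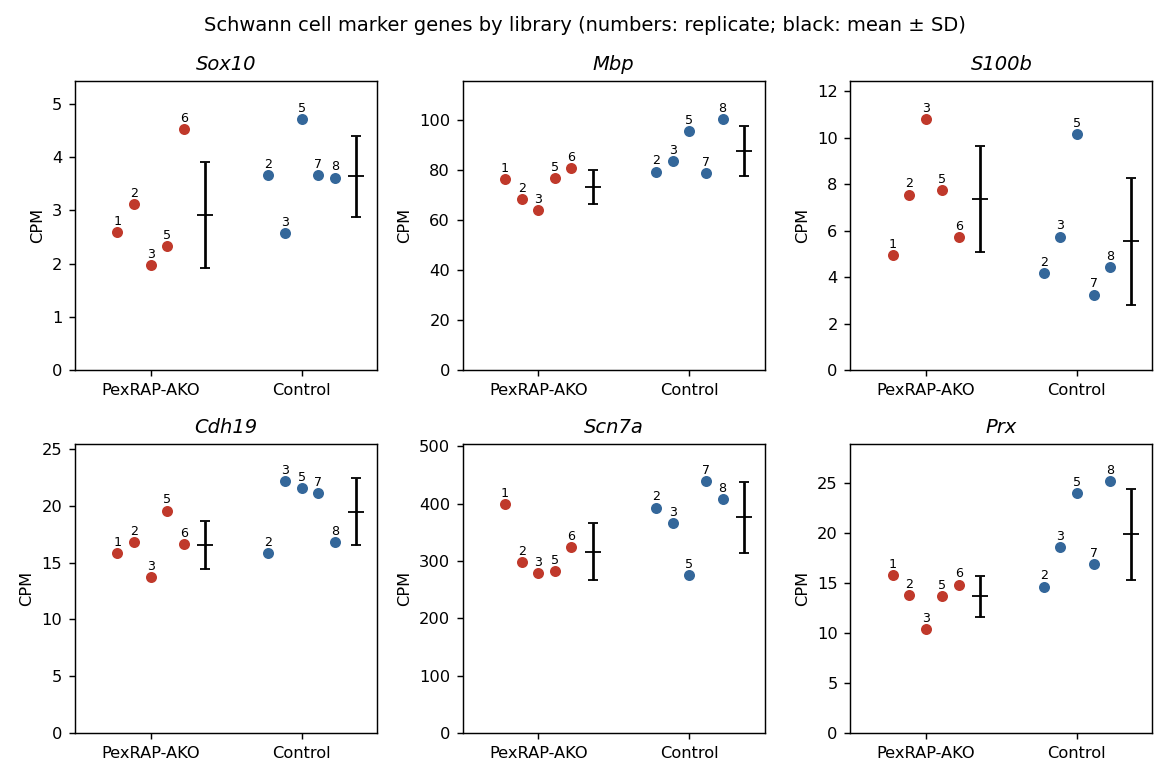
CPM (TMM-scaled) of each gene in each library, PexRAP-AKO left and Control right; points are libraries labelled with the replicate number, black bars the mean ± SD of 5. The groups overlap in all 6 panels, the Control mean is higher in 5 panels, and for S100b the PexRAP-AKO mean of 7.35 CPM is above the Control mean of 5.54 CPM.

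Per length, the 6 genes spanned a 44.0-fold range of mean level, from Scn7a to Sox10. Levels are given as CPM per kilobase of exon, using exon lengths of GENCODE M21 (GRCm38), which may not be the authors' annotation. Scn7a averaged 43.1 ± 6.78 in PexRAP-AKO and 51.3 ± 8.46 in Control (SD, n = 5 each), and by CPM it stood above 97.98% of tested genes. Mbp followed at 8.64 ± 0.82 in PexRAP-AKO and 10.3 ± 1.17 in Control. Sox10, the lineage factor, was the lowest at 0.95 ± 0.33 in PexRAP-AKO and 1.19 ± 0.25 in Control. Scn7a was above Mbp, Mbp above S100b and Prx above Sox10 in 10 of 10 libraries. S100b and Cdh19, at 4.34 ± 1.72 and 4.21 ± 0.68 CPM per kilobase over the 10 libraries, could not be ordered, S100b being higher in 4. Cdh19 was above Prx in 9 libraries, with overlapping ranges.

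**Figure D2:**
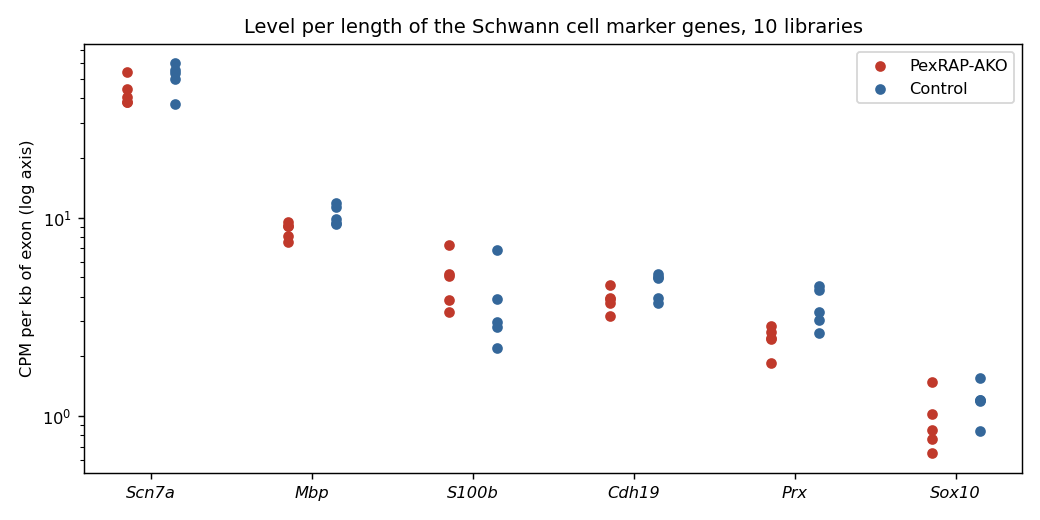
Level per length (CPM per kilobase of exon, log axis) of the 6 genes in the 5 PexRAP-AKO (left, red) and 5 Control (right, blue) libraries, ordered by the mean over all 10. Scn7a lies apart at the top, from 37.6 to 59.8, and Sox10 at the bottom, from 0.65 to 1.55.

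Other markers of nerve tissue were set beside the 6 genes. Of the 16 listed Schwann lineage genes, 13 were tested. Among genes of the lineage list, Erbb3, the neuregulin co-receptor, stood at 9.60 ± 3.43 CPM in PexRAP-AKO and 9.75 ± 1.83 CPM in Control (SD, n = 5 each). Neuronal transcripts were low: 11 of 15 listed axon and neuron genes did not pass the filter, and Th, the rate-limiting enzyme of noradrenaline synthesis, had at most 1 count in any library. The other tested genes of the non-myelinating list ran from 0.15 (Grik3) to 18.9 (Apod) CPM per kilobase, with Itga4 at 2.29, L1cam at 0.97 and Ngfr at 0.86, against 47.2 for Scn7a over the 10 libraries. Erbb3, Th, Grik3, Apod, L1cam and Ngfr were named after their values were seen.

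Prx (ENSMUSG00000053198, chromosome 7, 27499324 to 27520214, plus strand, GRCm38) had the largest negative log2 fold change of the 6. It encodes periaxin, which links the myelin sheath to the Schwann cell's basal lamina. Prx stood at 15.8, 13.8, 10.3, 13.7 and 14.8 CPM in PexRAP-AKO replicates 1, 2, 3, 5 and 6, against 14.6, 18.6, 23.96, 16.9 and 25.1 CPM in Control replicates 2, 3, 5, 7 and 8. PexRAP-AKO replicate 3 was the lowest of all, and 4 of 5 Control libraries lay above every PexRAP-AKO library, Control replicate 2 being the exception. The log2 fold change was -0.54 (SE 0.16, edgeR unadjusted p = 0.00551, adjusted p = 0.175), and the exact two-sided permutation p was 0.0238. DESeq2, which called 3.75% of the genes it gave an adjusted p, put Prx just past the threshold at an adjusted p of 0.0487. The transcript Gm15541 on the opposite strand shares 300 bases (5.38%) of the Prx exons. Strandedness is not given, but Gm15541 had 65 counts over the 10 libraries, against 136 to 477 per library for Prx.

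Mbp (ENSMUSG00000041607, chromosome 18, 82475146 to 82585637, plus strand), myelin basic protein, compacts the inner faces of the sheath. Mbp stood at 76.4, 68.2, 63.8, 76.7 and 80.7 CPM in PexRAP-AKO replicates 1, 2, 3, 5 and 6, against 79.3, 83.4, 95.4, 78.7 and 100.4 CPM in Control replicates 2, 3, 5, 7 and 8. The 4 lowest PexRAP-AKO libraries lay below every Control library, and replicate 6 overlapped Control replicates 2 and 7. The log2 fold change was -0.26 (SE 0.087, edgeR unadjusted p = 0.0123, adjusted p = 0.209; exact permutation p = 0.0238). Counts are per gene, so myelin and golli transcripts of Mbp cannot be separated. Summed T and B lymphocyte transcripts (13 genes) ranged from 15.02 to 193 CPM in PexRAP-AKO and from 12.7 to 63.5 CPM in Control. The mean log2 CPM of the tested lymphocyte genes correlated with Mbp at a Pearson r of 0.11 (permutation p = 0.744, adjusted p = 0.869 over 69 relations). On deviations from group means that r was 0.59. With that mean as a covariate, the log2 fold change of Mbp was -0.33 (edgeR adjusted p = 0.101). The part of lymphocyte transcripts in the Mbp values was not tested beyond that.

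Mbp and Prx varied together from library to library. Over the 10 libraries, their log2 CPM correlated at a Pearson r of 0.95 (permutation p = 7e-05, adjusted p = 0.00161 over 69 relations) and a Spearman rho of 0.84 (permutation p = 0.00356, adjusted p = 0.0583). The r was 0.90 on deviations from group means and 0.86 without the 2 libraries farthest from the Prx median, Control replicates 5 and 8. Among 15 pairs of members, this and the pair of S100b with Scn7a were those past an adjusted p of 0.05 by Pearson r. Prx also followed endothelial genes, whose mean log2 CPM correlated with it at r = 0.83 (permutation p = 0.00209, adjusted p = 0.0185) and rho = 0.77 (permutation p = 0.0129, adjusted p = 0.0988). That r was 0.68 on deviations from group means and 0.70 without PexRAP-AKO replicates 3 and 5. Mbp had an r of 0.73 with the same endothelial mean (permutation p = 0.0171, adjusted p = 0.131), and 0.49 on deviations from group means. All 14 endothelial genes had a negative log2 fold change (median -0.26, 0 past the adjusted threshold), and their part in the lower Prx mean was not tested.

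**Figure D3:**
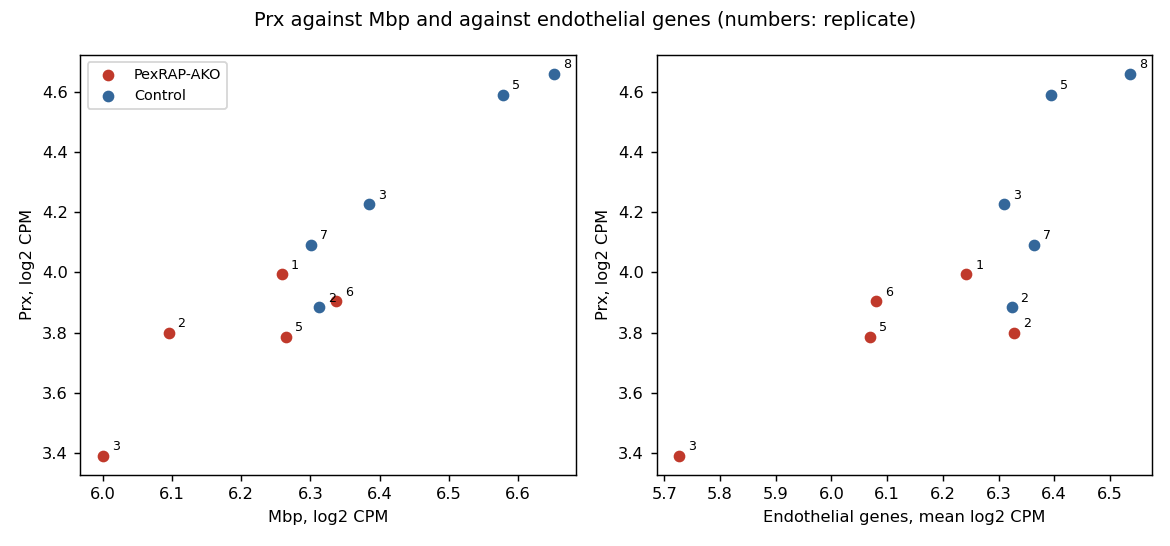
Prx (log2 CPM) against Mbp (log2 CPM, left) and against the mean log2 CPM of 14 endothelial genes (right), 1 point per library with its replicate number, PexRAP-AKO red and Control blue. Control replicates 5 and 8 are highest and PexRAP-AKO replicate 3 lowest for both Mbp and Prx (r = 0.95), and the same PexRAP-AKO library is lowest for endothelial genes (r = 0.83).

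Most other tested myelin genes stood on the same side as Prx and Mbp. Of 21 listed myelin genes, which include both, 18 were tested, and 14 of these had a negative log2 fold change, with a median of -0.39. None passed over all genes in edgeR, while 9 were lower and 0 higher at an unadjusted p under 0.05, against 6.44% of all tested genes lower and 9.01% higher. The myelin list was drawn up with earlier results of these data known and is not independent evidence of direction. Drp2, which binds periaxin in the plasma membrane, averaged 12.0 ± 1.73 CPM in PexRAP-AKO and 17.5 ± 2.55 CPM in Control (SD, n = 5 each; log2 fold change -0.55, SE 0.12, edgeR adjusted p = 0.107). Drp2 did not overlap between the groups, as was so for 1.33% of tested genes in that direction. Drp2 and Prx were among the genes of the list that DESeq2 called. Pmp22 (0.12), Egr2 (0.16) and Cnp (-0.01), chosen after their values were seen, had log2 fold changes above 0 or close to it and did not pass. The count of 9 was 5 without Control replicate 8, the library richest in muscle transcripts (5.12% of all genes lower), and 5 with the mean of the skeletal muscle genes in the fit (5.26%), alternatives applied to this count after seeing the data.

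Genes of the periaxin complex and of Schwann cell basal lamina receptors gave no call. Of 13 tested, 0 passed over all genes. Utrn, the dystrophin relative utrophin, had a log2 fold change of -0.25 (SE 0.12, edgeR adjusted p = 0.351) and Lamb2, a laminin chain, -0.24 (SE 0.10, edgeR adjusted p = 0.297), and the list's median was -0.12. Of 17 tested genes of neuregulin and ERBB signalling and Schwann differentiation, 15 had a negative log2 fold change and 0 passed, with a median of -0.067. Adgrg6, the adhesion receptor needed for Schwann cells to start myelination, had -0.31 (SE 0.12, edgeR adjusted p = 0.242).

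Sox10 (ENSMUSG00000033006, chromosome 15, 79154908 to 79165240, minus strand) was measured with 26 to 94 counts per library, the fewest at the low end of the 6, and its precision is limited accordingly. Sox10 stood at 2.59, 3.12, 1.98, 2.34 and 4.52 CPM in PexRAP-AKO replicates 1, 2, 3, 5 and 6, against 3.66, 2.57, 4.72, 3.66 and 3.62 CPM in Control replicates 2, 3, 5, 7 and 8. The groups overlapped, with PexRAP-AKO replicate 6 second only to Control replicate 5. The log2 fold change was -0.32 (SE 0.24, edgeR adjusted p = 0.554; exact permutation p = 0.183). Without PexRAP-AKO replicate 6 it was -0.53 (adjusted p = 0.244), without PexRAP-AKO replicate 3 -0.20 (adjusted p = 0.749), and without Control replicate 5 -0.20 (adjusted p = 0.703). PexRAP-AKO replicate 6 also held the most epithelial transcripts, 75.0 CPM summed over 12 genes, against 9.80 to 11.1 CPM in the other PexRAP-AKO libraries and 10.6 to 25.5 CPM in Control. The mean log2 CPM of the 3 tested epithelial genes correlated with Sox10 at r = 0.47 over the 10 libraries (permutation p = 0.168, adjusted p = 0.399 over 69 relations). That r was 0.60 on deviations from group means and 0.028 without PexRAP-AKO replicate 6 and Control replicate 7. The groups differed in sign, with r = 0.90 within PexRAP-AKO and r = -0.55 within Control. The part of epithelial transcripts in the Sox10 level of PexRAP-AKO replicate 6 was not tested beyond that.

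Cdh19 (ENSMUSG00000047216, chromosome 1, 110888326 to 110977584, minus strand), the cadherin of the lineage, varied least across its 10 libraries after Mbp and Scn7a, with a 1.62-fold span. Cdh19 stood at 15.9, 16.8, 13.7, 19.6 and 16.6 CPM in PexRAP-AKO replicates 1, 2, 3, 5 and 6, against 15.8, 22.2, 21.6, 21.1 and 16.8 CPM in Control replicates 2, 3, 5, 7 and 8. Control replicates 3, 5 and 7 were above all PexRAP-AKO libraries, while Control replicates 2 and 8 lay among them. Cdh19 had a log2 fold change of -0.24 (SE 0.12, edgeR adjusted p = 0.352; exact permutation p = 0.103). In the lineage list, which holds Sox10, Cdh19 and S100b, 9 of 13 tested genes had a negative log2 fold change (median -0.22) and 0 passed. The other 4 had a positive value, S100b and Ngfr among them. Ngfr, chosen after its values were seen, had 0.48 (SE 0.41, edgeR adjusted p = 0.610). Kcna1, a voltage-gated potassium channel, had -0.56 (SE 0.13, edgeR adjusted p = 0.112). It did not overlap between the groups, as was so for 1.33% of tested genes in that direction. DESeq2, which called 3.75% of the genes it gave an adjusted p, also called Kcna1. Art3, an ADP-ribosyltransferase family member, had -0.28 (SE 0.16, edgeR adjusted p = 0.429).

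**Figure D4:**
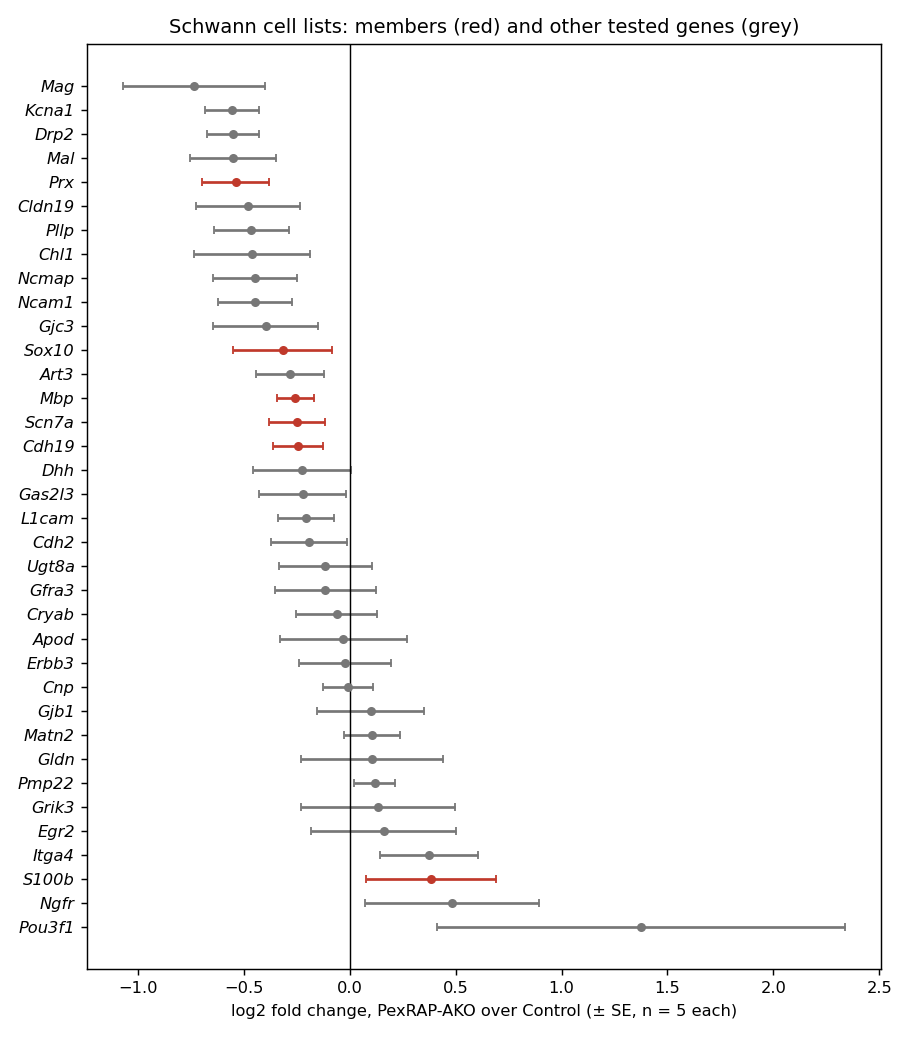
Log2 fold change of PexRAP-AKO over Control (± SE) for tested genes of the myelin, non-myelinating and lineage lists, ordered by value; the 6 members are red and the other genes grey. Most points lie below 0, S100b and Prx lie on opposite sides (0.38 and -0.54), and none passes an adjusted p of 0.05 in edgeR.

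Scn7a (ENSMUSG00000034810, chromosome 2, 66673425 to 66784914, minus strand) had 3137 to 7278 counts per library. Scn7a stood at 399.4, 297, 279, 282 and 325 CPM in PexRAP-AKO replicates 1, 2, 3, 5 and 6, against 393, 366, 276, 439 and 408 CPM in Control replicates 2, 3, 5, 7 and 8. PexRAP-AKO replicate 1 lay with the high Control libraries and Control replicate 5 was the lowest of all 10. Scn7a had a log2 fold change of -0.25 (SE 0.13, edgeR adjusted p = 0.403; exact permutation p = 0.159). Of 9 tested genes of the non-myelinating list, 6 had a negative value (median -0.19) and 0 passed. Ncam1, a neural adhesion molecule, had -0.45 (SE 0.17, edgeR adjusted p = 0.253) and Chl1, its relative, -0.46 (SE 0.28, edgeR adjusted p = 0.456). The 3 positive values were those of Itga4 (0.37, SE 0.23, edgeR adjusted p = 0.475), Ngfr (0.48, SE 0.41, edgeR adjusted p = 0.610) and Grik3 (0.13, SE 0.36, edgeR adjusted p = 0.896). Among 8 tested sodium channel genes, 4 values were negative and 4 positive, and Scn3a (0.62, SE 0.37, edgeR adjusted p = 0.459) and Scn8a (0.45, SE 0.36, edgeR adjusted p = 0.581) had the largest positive values.

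S100b (ENSMUSG00000033208, chromosome 10, 76253853 to 76261159, plus strand) was the exception in direction and the most variable of the 6, with a 3.32-fold span over the libraries. S100b stood at 4.94, 7.54, 10.8, 7.73 and 5.72 CPM in PexRAP-AKO replicates 1, 2, 3, 5 and 6, against 4.17, 5.74, 10.1, 3.25 and 4.42 CPM in Control replicates 2, 3, 5, 7 and 8. Control replicate 5 stood well above the other Control libraries and was second only to PexRAP-AKO replicate 3. The log2 fold change was 0.38 (SE 0.31, edgeR adjusted p = 0.589; exact permutation p = 0.214), and it was 0.73 without Control replicate 5 (adjusted p = 0.168), 0.24 without Control replicate 7 and 0.20 without PexRAP-AKO replicate 3. In the S100 family, 8 of 9 tested genes had a positive log2 fold change and 0 passed, with a median of 0.13. S100a1, with the lowest p of the family, had 0.17 (SE 0.078, edgeR adjusted p = 0.315).

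S100b and Scn7a ran opposite to each other, S100b with thermogenic fat transcripts and Scn7a against them. Their log2 CPM correlated at r = -0.95 (permutation p = 2e-05, adjusted p = 0.00138) and rho = -0.94 (permutation p = 0.00022, adjusted p = 0.00759) over the 10 libraries, at -0.94 on deviations from group means, and at -0.93 without Control replicates 5 and 7. The mean log2 CPM of 12 brown and beige adipocyte genes correlated with S100b at r = 0.87 (permutation p = 0.00136, adjusted p = 0.0156; rho = 0.92, permutation p = 0.00052, adjusted p = 0.012). The same measure correlated with Scn7a at r = -0.93 (permutation p = 5e-05, adjusted p = 0.00161; rho = -0.95, permutation p = 9e-05, adjusted p = 0.00621). On deviations from group means these were 0.83 for S100b and -0.91 for Scn7a, and without Control replicates 7 and 8 they were 0.86 and -0.95. With that measure as a covariate, the log2 fold change was -0.060 for S100b (edgeR adjusted p = 0.957) and -0.015 for Scn7a (edgeR adjusted p = 0.976). In the same fit it was -0.48 for Prx (edgeR adjusted p = 0.524) and -0.23 for Mbp (edgeR adjusted p = 0.581). It was -0.32 for Sox10 (edgeR adjusted p = 0.782) and -0.31 for Cdh19 (edgeR adjusted p = 0.581). All points share libraries and scaling. Summed brown and beige transcripts ranged from 647 to 3038 CPM in PexRAP-AKO and from 304 to 2335 CPM in Control, and 12 of 12 genes had a positive log2 fold change (median 0.84, 0 past the threshold). Because these genes leaned to the PexRAP-AKO side, the covariate fit cannot separate their part from that of genotype. Their part in the values of the members was not tested.

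**Figure D5:**
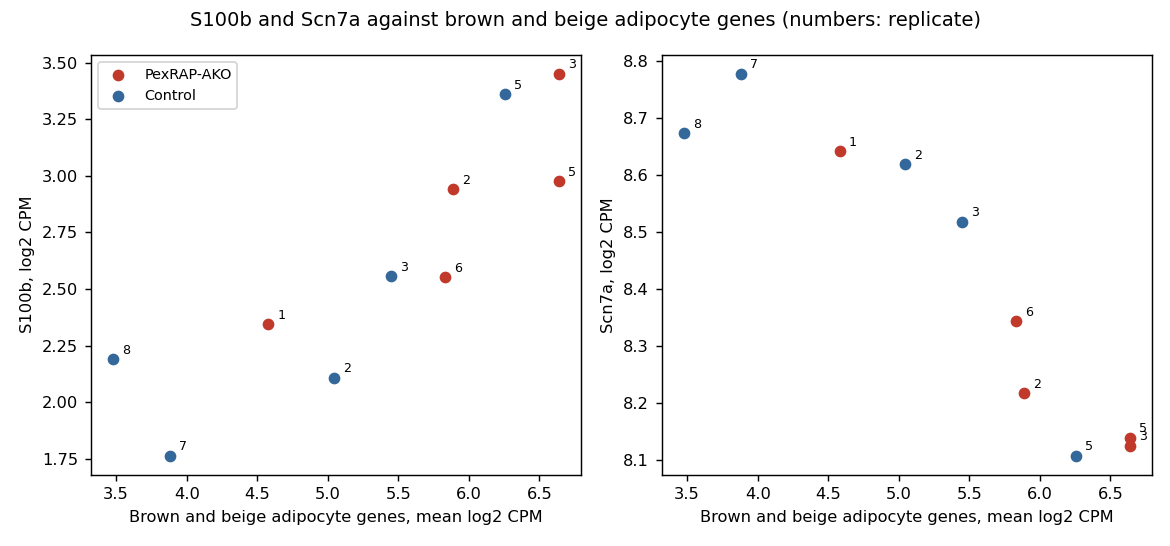
S100b (left) and Scn7a (right) in log2 CPM against the mean log2 CPM of 12 brown and beige adipocyte genes, 1 point per library with its replicate number, PexRAP-AKO red and Control blue. S100b climbs (r = 0.87) and Scn7a descends (r = -0.93) along the axis, and Control replicate 5 lies with PexRAP-AKO replicates 3 and 5.

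White adipocyte genes gave the mirror image, at r = -0.87 with S100b (permutation p = 0.00098, adjusted p = 0.0139; rho = -0.83, permutation p = 0.00472, adjusted p = 0.0583) and r = 0.87 with Scn7a (permutation p = 0.00101, adjusted p = 0.0139; rho = 0.78, permutation p = 0.0106, adjusted p = 0.0988). On deviations from group means these were -0.85 and 0.85, and without PexRAP-AKO replicates 3 and 5 they were -0.82 and 0.81. Sox10 followed smooth muscle and pericyte genes (r = 0.79, permutation p = 0.00214, adjusted p = 0.0185; rho = 0.83, permutation p = 0.00507, adjusted p = 0.0583), at 0.73 on deviations and 0.87 without PexRAP-AKO replicate 3 and Control replicate 7. In all, 8 of 69 relations passed by r and 3 by rho. No relation of a member with skeletal muscle genes passed, the highest r being 0.60 for Mbp (adjusted p = 0.223).

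The genes most like each member in log2 CPM over the 10 libraries also differed between members. Prx was first for Mbp and Mbp first for Prx (r = 0.95), and Rapgef2, a guanine nucleotide exchange factor, was in the top 3 of both (r = 0.94 with each). Sh2b3, an adaptor of cytokine signalling, was also near Mbp (r = 0.94), and Mapk12, a p38 kinase, near Prx (r = 0.94). Nearest to S100b were Sept9 (r = 0.97), a septin, Frem1 (r = 0.96) and Glmp (r = 0.96), and nearest to Scn7a were Crebrf (r = 0.98), Heph (r = 0.97) and Srpk2 (r = 0.97). Sox10 came nearest to Hcn4 (r = 0.90), Gba2 (r = 0.89) and Sorbs2os (r = 0.89), and Cdh19 to Insl3 (r = 0.91), Adra2c (r = 0.89) and Marveld1 (r = 0.89). The last 2 sets were the least alike to their members, and none of the genes most like one member was shared beyond Mbp and Prx.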

How the data were processed

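The authors deposited raw read counts per gene, 1 column per library. Per the submitters' processing notes, the tools were STAR (2.0.4b), featureCounts from Subread, and edgeR. No source used here names the build, annotation or strand setting. Of 40724 rows for 40501 identifiers, 117 identifiers appeared more than once, always with the same counts, and entered once. GENCODE M21 held 99.4% of identifiers and gave coordinates and exon lengths. The lowest chi-square per degree of freedom between replicates was 7.08, so each library was kept.

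TMM scaling in edgeR 4.0.16 (R 4.3.3) followed filterByExpr (minimum count 10, minimum total 15), and the quasi-likelihood F test ran over 14913 genes with no covariate. The SE was taken as the size of the log2 fold change over the root of its F value. A prior count of 2 was used for log2 CPM. Single genes were also compared by exact permutation of 5 against 5, whose smallest p is 0.00794; correlations used 100000 permutations (smallest p 1e-05), adjusted over 69 relations. On simulated counts for this comparison and 14913 genes, 49.25% of genes changed 1.5-fold, 77.6% changed 2-fold and 95.5% changed 4-fold were recovered.

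The 6 members and the 21 gene lists (270 symbols, all found) were chosen with earlier results of these data known. Named genes are the members, Dhrs7b, the 3 genes most like each member (mean of at least 1 CPM, no predicted name) and up to 4 per list by p; others are marked as named after their values were seen. Alternatives were other scalings and filters, DESeq2 1.42.0, limma 3.58.1 voom, cell type covariates, the replicate number as a block and libraries left out. Some genes of the lists count in the totals but are not reported here.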

Additional observations from a re-analysis of the deposited data

Results flagged for a closer look

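In 8 of 124 groups of 5 values, 1 library stood apart from the rest of its group by its gap over the range, which by chance would happen in about 1 group in 20 (6.2 here). None of the 6 Schwann cell genes was among them. All values are log2 CPM. PexRAP-AKO replicate 6 was high in the mean of the SOX family (3.35, the others 3.03 to 3.10) and of mammary and skin epithelium genes (2.78, the others 0.53 to 1.10). PexRAP-AKO replicate 2 was low in the mean of skeletal muscle genes (0.21, the others 2.26 to 3.09). Control replicate 5 was high for Chl1 (3.80, the others 2.59 to 2.82) and in the mean of the non-myelinating Schwann cell list (3.87, the others 3.27 to 3.38). The same library was low for Utrn (9.68, the others 10.01 to 10.05), for Elavl3 (-1.35, the others 0.05 to 0.14) and in the mean of white adipocyte genes (10.85, the others 11.11 to 11.21).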

How the results depend on the processing

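Of 144 values of the 6 genes under 24 alternatives, 142 kept their direction and their side of the threshold. The exceptions were Prx, called by DESeq2 (log2 fold change -0.53, adjusted p = 0.0487), and S100b, reversed with the brown and beige score as a covariate (-0.060). The adjusted p of Prx over its alternatives ran from 0.0487 to 0.524, and its log2 fold change from -0.63 to -0.45. DESeq2 gave Sox10 no adjusted p, and that value is counted in the 142 for its direction alone. The count of 15 called genes over the whole table (14 higher, 1 lower) was 415 (305 and 110) with DESeq2, 26 without the filter on counts, 109 with sample weights, 36 with the lymphocyte score, 6 with the skeletal muscle score, 7 with the brown and beige score, and 5 without PexRAP-AKO replicate 6 and Control replicate 8. It was 3 (Control replicate 8) to 58 (PexRAP-AKO replicate 1) with 1 library left out. The cause was not tested. A replicate block over the 6 libraries that share numbers 2, 3 and 5 gave 3, and 2 in the same libraries without the block, an alternative added after seeing the data. Deviations of same-numbered libraries correlated at -0.021, -0.081 and 0.36 for numbers 2, 3 and 5. Only for number 5 was the same-numbered Control library the best match. The labels do not say that the numbers mark pairs, and they were treated as names only. These correlations cannot settle whether some libraries were paired. The count of 9 myelin genes lower at an unadjusted p under 0.05 ran from 5 to 10 over the alternatives. Sox10, with as few as 26 counts, is the member most limited by depth.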

Other observations

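Genes of nerve and fat signalling beyond the Schwann cell lists also gave no call. Of 11 tested neurotrophic and axon guidance genes, 0 passed over all genes. Clstn3, whose adipocyte form promotes S100B secretion in mouse thermogenic fat, averaged 121.7 ± 24.5 CPM in PexRAP-AKO and 80.9 ± 20.3 CPM in Control (SD, n = 5 each; log2 fold change 0.59, SE 0.18, edgeR adjusted p = 0.192), and the adipocyte form cannot be separated in counts per gene. Prdm16, a regulator of beige fat, had -0.31 (SE 0.11, edgeR adjusted p = 0.214), the opposite sign to Clstn3 and S100b. Nrg4, an adipocyte-secreted neuregulin chosen after its values were seen, had -0.08 (SE 0.059, edgeR adjusted p = 0.529).

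Of 4 tested axon and neuron genes, 2 had a negative and 2 a positive log2 fold change (median -0.12), and 0 passed. Among them Uchl1, a neuronal deubiquitinase, averaged 2.56 ± 0.32 CPM in PexRAP-AKO and 4.25 ± 0.91 CPM in Control (SD, n = 5 each, log2 fold change -0.72, SE 0.18, edgeR adjusted p = 0.125). It did not overlap between the groups, as was so for 1.33% of tested genes in that direction. Within the SOX family, 7 of 11 tested genes had a negative and 4 a positive log2 fold change, and 0 passed (median -0.13). Sox7 (-0.59, SE 0.15, edgeR adjusted p = 0.138) and Sox18 (-0.46, SE 0.17, edgeR adjusted p = 0.229), both endothelial factors, had larger negative values than Sox10. Sox17, a further endothelial factor chosen after its values were seen, had a smaller one (-0.13, SE 0.14, edgeR adjusted p = 0.684). Of 10 tested perineurial and endoneurial genes, 0 passed, with a median of -0.14. Of 5 tested melanocyte genes, another Sox10-dependent lineage, 0 passed, with a median of 0.02 and 1 listed gene at 0 in all libraries.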
